A study of Rattus norvegicus with 20 samples.

Results

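Potassium channel genes outside the ATP-sensitive (KATP) and G protein-gated (GIRK) families were examined in the hippocampus of transgenic-AD rats. The same model fed diazoxide and dibenzoylmethane was examined too. Kcnj13, of neither family, was left out as well. The genes are the symbols that begin with Kcn in the deposited tables, apart from 7 (Kcnj3, Kcnj5, Kcnj6, Kcnj8, Kcnj9, Kcnj11 and Kcnj13), and with a mean normalized value of at least 1 RPM over the 10 libraries of the table tested. Of 91 Kcn symbols among 17168 gene rows, 84 remained after the exclusion, and 69 reached this level in the genotype comparison and 70 in the treatment comparison. They fall into 20 subfamilies by the letters before the first digit. No test of a difference entered this choice, but a gene high in 1 group can reach the level through that group. Just inside the level in the genotype table were Kcne3 (1.00 RPM) and Kcnh6 (1.18 RPM), and just outside were Kcna5 (0.975 RPM) and Kcne4 (0.423 RPM). Kcne3 and Kcnh6 reached it through TGNT rats, with means of 0.656 and 0.826 RPM in WTNT and 1.35 and 1.54 RPM in TGNT. In the treatment table Kcnrg (1.42 RPM) and Kcne1l (1.53 RPM) were just inside, and Kcne3 (0.946 RPM) and Kcna7 (0.688 RPM) just outside.

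Poly(A) mRNA of the hippocampus was sequenced from female rats aged 4 months, with a library per rat. The genotype comparison held 5 wild-type rats without treatment (WTNT) and 5 untreated TgF344-AD rats (TGNT), which carry human Swedish amyloid precursor protein and a mutant human presenilin-1, both under the prion promoter. The treatment comparison held another 4 TGNT libraries and 6 libraries of TgF344-AD rats (TGTR) whose chow held diazoxide (DZ) at 10 mg/kg daily together with 200 mg/kg of dibenzoylmethane (DIB) from day 52 onwards, while untreated rats ate normal chow. There was no treated wild-type group and no group with a single drug among these libraries, the prion promoter is not restricted to hippocampal neurons, and the labels and the methods name different sides of the brain (left and right). The labels do not say whether the TGNT rats of the treatment table are animals of the genotype table. The tables were made and normalized apart, so values are compared within a table only.

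Potassium channels let potassium ions leave a neuron, which sets the resting potential, ends the action potential and limits repetitive firing. Voltage-gated channels are built from pore-forming subunits (Kcna, Kcnb, Kcnc, Kcnd, Kcnh, Kcnq), electrically silent partners (Kcnf, Kcng, Kcns, Kcnv) and auxiliary subunits (Kcnab, Kcne, Kcnip). Calcium-activated channels (Kcnma, Kcnmb, Kcnn) follow calcium entry, sodium-activated channels (Kcnt) follow sodium entry, inward rectifiers (Kcnj) conduct best near the resting potential, and leak channels (Kcnk) are open at rest. Diazoxide opens KATP channels, whose genes are not among those described here.

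Estimated counts summed to between 5848458 and 9926088 per library in the genotype table and to between 9215039 and 14175594 in the treatment table. A single count was worth 0.102 to 0.171 RPM and 0.0706 to 0.101 RPM, respectively. The summed RPM of the channel genes was 4560 ± 205 in WTNT and 4335 ± 119 in TGNT rats (SD, n = 5 each), and in the treatment comparison it was 4601 ± 197 in TGNT (SD, n = 4) and 4548 ± 253 in TGTR rats (SD, n = 6). Neurons, astrocytes, oligodendrocytes, microglia and vessels were all represented by their defining markers. Libraries differed in markers of subregions and of adjoining tissue. The summed choroid plexus markers were 3061 RPM in TGTR replicate 5 and 152 RPM in TGTR replicate 6, against 8.40 to 24.5 RPM in the other libraries of that table. In bulk tissue, fewer cells of a type and less RNA per cell cannot be told apart.

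Between TGNT and WTNT rats, the channel genes lay on both sides of no difference. Of the 69 genes, 32 had a higher and 37 a lower fitted mean in TGNT (46.4% higher, background 52.5%). Their median log2 fold change was -0.01, beside 0.01 for the background, the 11641 genes at or above 1 RPM. The log2 fold changes ran from -0.49 (Kcnab3) to 1.06 (Kcne3). In edgeR's quasi-likelihood test with Benjamini-Hochberg adjustment over all genes, 0 of the 69 passed both thresholds (adjusted p under 0.05, with the means at least 1.5-fold apart; background, 0.0172%), and the lowest adjusted p was 1. DESeq2, the likelihood ratio and exact tests of edgeR, limma-trend and an unequal-variance test gave 0 as well. An unadjusted p under 0.05 was found for 6 genes, 3 higher (4.35%, background 2.04%) and 3 lower (4.35%, background 1.88%). Kcne3, 1 of the 3 higher, reached 1 RPM only through its TGNT values. In 0 genes did all TGNT libraries lie above all WTNT libraries (background 0.344%), and in 0 did they all lie below (background 0.309%). The median size of the log2 fold change, without its sign, was 0.12 for the channel genes and 0.08 for the background.

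**Figure D1:**
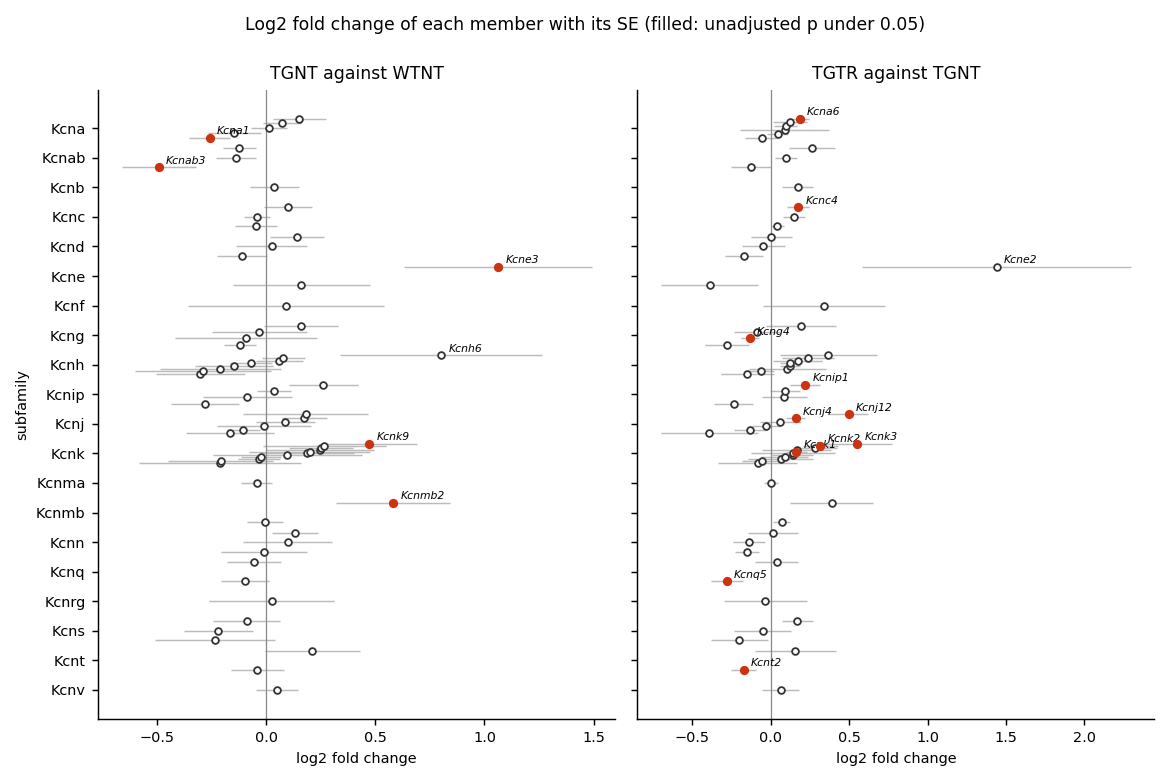
Log2 fold change of 66 (left) and 67 (right) channel genes (horizontal axis) with its SE (grey bars), by subfamily (vertical axis), for TGNT against WTNT (left) and TGTR against TGNT (right). Filled points have an unadjusted p under 0.05, and most points of both panels sit within 0.5 of 0, with Kcne3 at 1.06 on the left and Kcne2 at 1.44 on the right as the widest.

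The Kcnab genes encode cytoplasmic beta subunits that bind Kcna channels and speed their inactivation or help them reach the surface. Kcnab3 measured 6.96, 9.41, 11.7, 8.88 and 7.33 RPM in the WTNT libraries and 5.37, 8.14, 6.72, 5.74 and 5.73 RPM in the TGNT libraries. Of the TGNT libraries, 4 lay below the lowest WTNT library, and TGNT replicate 2 lay inside the WTNT range. The difference came to a log2 fold change of -0.49 ± 0.17 (SE), with an unadjusted p of 0.0106 and an adjusted p of 1 (edgeR). An exact two-sided permutation test of the RPM gave p = 0.0317, where the smallest possible value is 0.00794. The other beta subunits had smaller differences in the same direction, with log2 fold changes of -0.12 for Kcnab1 and -0.14 for Kcnab2 (unadjusted p of 0.125 and 0.151, edgeR).

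Kcna1 encodes a low-threshold axonal subunit that keeps neurons from firing repetitively. It measured 111, 114, 99.9, 111 and 80.5 RPM in WTNT and 91.5, 73.1, 83.2, 94.9 and 86.8 RPM in TGNT rats. The WTNT libraries were the higher ones apart from WTNT replicate 5, which lay among the TGNT libraries. This gave a log2 fold change of -0.26 ± 0.09 (SE), with an unadjusted p of 0.0149 and an adjusted p of 1 (edgeR), and the unadjusted p stayed under 0.05 in 22 of 22 alternatives, as it did for Kcnab3. Without WTNT replicate 5, all TGNT values of Kcna1 lay below all WTNT values. The axonal partners had smaller differences, and no test compared the genes with each other. Kcna2, which assembles with Kcna1 beside the nodes of myelinated axons, averaged 96.8 ± 12.2 RPM in WTNT and 97.4 ± 7.26 RPM in TGNT rats (SD, n = 5 each). The log2 fold changes were 0.07 for Kcna4 and -0.15 ± 0.12 (SE) for Kcna6, in the direction of Kcna1, and without WTNT replicate 1 Kcna6 joined Kcna1 and Kcnab3 at an unadjusted p under 0.05. Myelin markers were lower in TGNT as well, with a lower mean for 6 of 6, and the list summed to 4384 to 9872 RPM in WTNT libraries, against 4132 to 7458 RPM in those of TGNT. Rat by rat the order was mixed. WTNT replicate 5, low for Kcna1, had the lowest WTNT sum, and TGNT replicate 1, lowest for Kcnab3, had the lowest sum of all but the second highest TGNT value of Kcna1. TGNT replicate 2, lowest for Kcna1, had a sum of 6625 RPM, and TGNT replicate 5, with the highest TGNT sum, was among the lowest for Kcnab3. The part of myelin in these differences was not tested.

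The Kcnc channels close quickly and permit fast firing. Kcnc1 and Kcnc2, known from fast-spiking interneurons, had log2 fold changes of -0.04 and 0.10. The A-type channel genes Kcnd2 and Kcnd3, which delay firing from the dendrites, had log2 fold changes of -0.11 and 0.14. Of their calcium-sensing partners, Kcnip2 measured 205, 167, 95.5, 181 and 123 RPM in WTNT and 146, 117, 117, 124 and 129 RPM in TGNT rats, with an unadjusted p of 0.0940 (edgeR). The WTNT spread of Kcnip2 covered all TGNT libraries.

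The genes with a higher mean in TGNT and an unadjusted p under 0.05 were Kcne3, Kcnmb2 and Kcnk9. Kcne3 reached the 1 RPM level only through its TGNT values, so its place in this count is not independent of its difference. In the alternatives run for each, the unadjusted p stayed under 0.05 in 11 of 20 for Kcne3, 12 of 21 for Kcnmb2 and 7 of 22 for Kcnk9. Kcne3, which encodes a small subunit that modulates several voltage-gated channels, measured 0.829, 0.614, 0.507, 0.854 and 0.478 RPM in WTNT and 0.624, 0.754, 1.14, 1.60 and 2.62 RPM in TGNT rats. These values rest on 3 to 6 counts per WTNT library and 5 to 21 per TGNT library. TGNT replicates 3, 4 and 5 lay above all WTNT libraries. The fitted log2 fold change was 1.06 ± 0.43 (SE), with an unadjusted p of 0.0259 and an adjusted p of 1 (edgeR), and without TGNT replicate 5 the unadjusted p was 0.124.

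Kcnmb2, a beta subunit that inactivates large-conductance calcium-activated channels, measured 1.16, 2.05, 1.65, 1.20 and 1.91 RPM in WTNT and 2.50, 1.66, 3.42, 2.27 and 2.24 RPM in TGNT rats, on 7 to 27 counts. Of the TGNT libraries, 4 lay above the highest WTNT library, and TGNT replicate 2 lay within the WTNT range. In the fit, its log2 fold change was 0.58 ± 0.26 (SE), with an unadjusted p of 0.0409 and an adjusted p of 1 (edgeR). Kcnk9, an acid-sensitive leak channel, measured 8.95, 6.44, 11.3, 7.85 and 17.2 RPM in WTNT and 16.1, 16.4, 13.7, 10.1 and 14.5 RPM in TGNT rats. The groups overlapped, since WTNT replicate 5 had the highest value of all. Its log2 fold change was 0.47 ± 0.22 (SE), with an unadjusted p of 0.0483 and an adjusted p of 1 (edgeR).

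**Figure D2:**
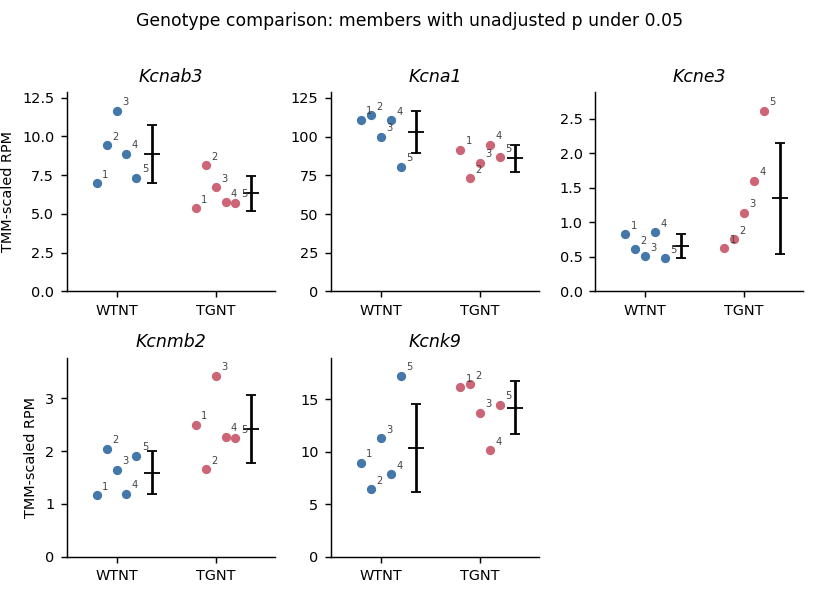
TMM-scaled RPM (vertical axes, from 0) of 5 channel genes with an unadjusted p under 0.05 in the genotype comparison, by group. Each point is a rat with its replicate number, and bars give the mean ± SD (n = 5). In every panel at least 1 rat lies inside the range of the other group.

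The remaining subfamilies had smaller or less even differences. The M-current genes, which hold pyramidal cells back from bursting, had log2 fold changes of -0.10 (Kcnq3) and -0.06 (Kcnq5). For the large-conductance calcium-activated channel, the pore gene Kcnma1 averaged 332 ± 24.7 RPM in WTNT and 321 ± 26.5 RPM in TGNT rats (SD, n = 5 each), and its neuronal beta subunit Kcnmb4 24.4 ± 1.75 and 24.2 ± 1.49 RPM. The small-conductance genes Kcnn1, Kcnn2 and Kcnn3, which carry the afterhyperpolarization, had log2 fold changes of -0.01, 0.13 and 0.10. The inward rectifier Kcnj10, through which astrocytes take up potassium, averaged 61.0 ± 4.52 RPM in WTNT and 56.5 ± 4.24 RPM in TGNT rats (SD, n = 5 each; exact permutation test, two-sided, p = 0.151). Of the 8 Kcnh genes, 5 had a lower mean in TGNT, among them Kcnh1 and Kcnh7 (log2 fold changes of -0.07 and -0.15). Kcnh6 had the highest log2 fold change of them (0.80, unadjusted p of 0.103, edgeR) at 0.826 ± 0.516 and 1.54 ± 0.755 RPM. It reached the 1 RPM level through its TGNT values, on 1 to 12 counts per WTNT library and 4 to 19 per TGNT library. All 3 Kcns genes had a lower mean in TGNT, as for Kcns2 (log2 fold change -0.22, unadjusted p of 0.185, edgeR). Of 11 Kcnk genes, 7 had a higher mean (background 52.5%), with 1 (Kcnk9) under 0.05 (background 2.04%).

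Between TGTR and TGNT rats, more channel genes had a higher than a lower mean in the treated rats, and the inward rectifier Kcnj12 had the lowest p. Of the 70 genes, 45 had a higher and 25 a lower fitted mean (64.3% higher, against 50.1% of the 11855 genes at or above 1 RPM), with a median log2 fold change of 0.08 beside 0.00 for the background. In edgeR's quasi-likelihood test with Benjamini-Hochberg adjustment, 0 of the 70 passed both thresholds (background, 0%), the lowest adjusted p was 0.858, and the other tests run also gave 0. Without TGTR replicates 5 and 6 the same number, 45, had a higher mean (background 49.6%), with a median log2 fold change of 0.041. Markers of some other cell types moved in the same direction. A higher mean in TGTR was found for 5 of 5 of endothelium and pericytes (TGNT sums of 181 to 205 RPM, TGTR sums of 190 to 236 RPM, exact two-sided permutation p = 0.0571), 6 of 6 of oligodendrocytes (4018 to 6391 and 4688 to 7220 RPM) and 5 of 5 of thalamus and habenula (35.4 to 40.0 and 38.8 to 54.4 RPM). Other lists went the other way, with a higher mean in TGTR for 0 of 6 astrocyte, 0 of 3 CA3, 1 of 5 microglial and 1 of 5 pan-neuronal markers. Those of CA1 (4 of 5) and the dentate gyrus (3 of 5) lay between. The part of these cell types and regions in the direction of the channel genes was not tested. An unadjusted p under 0.05 was found for 8 higher genes (11.4%, background 3.94%) and 3 lower ones (4.29%, background 2.24%). In 1 gene all TGTR libraries lay above all TGNT libraries (1.43%, background 0.81%), and in 0 did they all lie below (background 0.633%). The median size of the log2 fold change, without its sign, was 0.14 for the channel genes and 0.07 for the background.

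Kcnj12 encodes a strong inward rectifier that stabilizes the resting potential. It measured 8.85, 6.00, 7.82 and 8.74 RPM in the TGNT libraries, and in TGTR rats the lowest value was 9.86, the median 10.7 and the highest 12.5 RPM. All 6 TGTR libraries lay above the highest TGNT library, and TGNT replicate 2 was the lowest of the table. The log2 fold change was 0.50 ± 0.13 (SE), with an unadjusted p of 0.00160 and an adjusted p of 0.858 (edgeR). An exact two-sided permutation test of the RPM gave p = 0.00476, the smallest value that 210 arrangements of the rats allow. The unadjusted p stayed under 0.05 in 23 of 23 alternatives, with log2 fold changes of 0.39 to 0.56 and adjusted p-values (edgeR and the other tests) no lower than 0.188. Without TGTR replicates 5 and 6, the libraries with choroid plexus RNA and also the highest for Kcnj12, the log2 fold change was 0.41 (unadjusted p of 0.00739, edgeR). In the genotype comparison Kcnj12 had a log2 fold change of -0.01.

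A second inward rectifier gene, Kcnj4, of forebrain neurons, measured 82.6, 71.9, 75.2 and 75.0 RPM in TGNT and 76.6 to 91.5 RPM (median 85.4) in TGTR rats. TGNT replicate 1 was higher than TGTR replicates 4 and 5, and the other 4 TGTR libraries were above all TGNT libraries. Its log2 fold change was 0.16 ± 0.06 (SE), with an unadjusted p of 0.0188 and an adjusted p of 0.964 (edgeR). Of the other rectifiers, Kcnj2 had a log2 fold change of 0.06 ± 0.13 (SE), the glial Kcnj10 one of -0.03, and its glial partner Kcnj16 one of -0.39. No test compared these genes with Kcnj4, and the value of Kcnj16 turned to 0.05 without TGNT replicate 1.

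**Figure D3:**
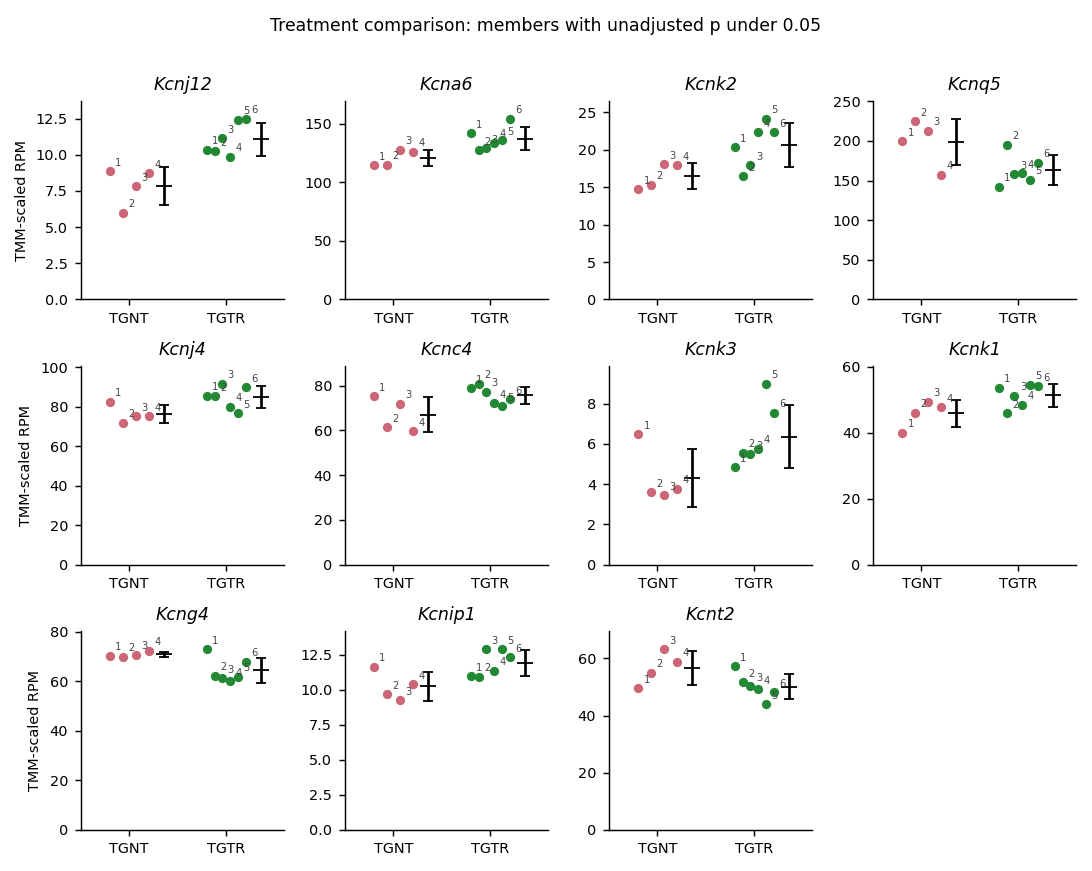
TMM-scaled RPM (vertical axes, from 0) of the 11 channel genes with an unadjusted p under 0.05 in the treatment comparison, by group. Each point is a rat with its replicate number, and bars give the mean ± SD (4 TGNT and 6 TGTR rats). The TGTR rats lie above all TGNT rats for Kcnj12, at 9.86 RPM or more, and the groups overlap in the other panels.

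The leak channels (Kcnk) set resting conductance, and 9 of 11 had a higher mean in TGTR rats (background 50.1%), 3 of them with an unadjusted p under 0.05 (background 3.94%). Without TGTR replicates 5 and 6, 9 of 11 again had a higher mean, but Kcnk1, Kcnk2 and Kcnk3 had an unadjusted p of 0.136, 0.0712 and 0.127 (edgeR), with log2 fold changes of 0.12, 0.22 and 0.33. Kcnk2, which is opened by stretch and by polyunsaturated fatty acids, measured 14.7, 15.3, 18.0 and 18.0 RPM in TGNT and 16.4 to 24.1 RPM (median 21.3) in TGTR rats. TGTR replicates 2 and 3 lay within the TGNT range and the other 4 above it. For Kcnk2 the log2 fold change was 0.32 ± 0.11 (SE), with an unadjusted p of 0.0147 and an adjusted p of 0.964 (edgeR).

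Kcnk3, an acid-sensitive leak channel, measured 6.48, 3.60, 3.46 and 3.77 RPM in TGNT and 4.85 to 8.99 RPM (median 5.67) in TGTR rats. TGNT replicate 1 stood apart from the other TGNT libraries, all of which lay below every TGTR library. The log2 fold change was 0.55 ± 0.22 (SE), with an unadjusted p of 0.0275 and an adjusted p of 0.964 (edgeR), and 0.81 without TGNT replicate 1. Its estimated counts were fractions in all 10 libraries, so some of its reads were shared with other genes. The 2 highest TGTR values were those of replicates 5 and 6. Kcnk1, a weakly rectifying leak channel, had 40.1, 46.1, 49.4 and 47.8 RPM in TGNT and 45.9 to 54.6 RPM (median 52.4) in TGTR rats, a log2 fold change of 0.16 (unadjusted p of 0.0314, adjusted p of 0.964, edgeR). Kcnk9 was the leak gene with a higher mean in TGNT and an unadjusted p under 0.05 (edgeR) in the genotype comparison. Its log2 fold change with treatment was 0.06.

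Among voltage-gated pore genes, Kcna6 measured 115, 115, 128 and 126 RPM in TGNT and 127 to 154 RPM (median 135) in TGTR rats, and 5 TGTR libraries lay above the highest TGNT library. Its log2 fold change was 0.18 ± 0.06 (SE), with an unadjusted p of 0.00923 and an adjusted p of 0.964 (edgeR). Kcnc4, whose channel inactivates rapidly, had 75.4, 61.3, 72.0 and 59.6 RPM in TGNT and 70.8 to 80.8 RPM (median 75.6) in TGTR rats. TGNT replicates 1 and 3 lay within the TGTR range and the other TGNT libraries below it, and the log2 fold change was 0.18 ± 0.07 (SE; unadjusted p of 0.0269, adjusted p of 0.964, edgeR). For both genes the estimates were fractions in all 10 libraries. The pore genes Kcna1, Kcnc1 and Kcnd2 had log2 fold changes of -0.06, 0.04 and 0.00.

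Kcnip1, a partner of Kcnd channels found in interneurons, measured 11.7, 9.68, 9.24 and 10.4 RPM in TGNT and 10.9 to 12.9 RPM (median 11.8) in TGTR rats. TGNT replicate 1 was again the TGNT library within the treated range. The log2 fold change was 0.22 ± 0.10 (SE), with an unadjusted p of 0.0418 and an adjusted p of 0.990 (edgeR). Interneuron markers moved with it, since 6 of 7 had a higher mean in TGTR, and their sum was 473 to 599 RPM in TGNT libraries, against 524 to 634 RPM in those of TGTR. The part of interneurons in this difference was not tested. Kcnip2 lay on the other side, with 195 ± 34.6 RPM in TGNT (SD, n = 4) and 165 ± 23.9 RPM in TGTR rats (SD, n = 6) and an unadjusted p of 0.0794 (edgeR).

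Of the 3 genes with a lower mean in TGTR and an unadjusted p under 0.05, Kcnq5 carries part of the M-current. It measured 199, 225, 213 and 157 RPM in TGNT and 143 to 196 RPM (median 159) in TGTR rats. TGNT replicate 4 lay inside the TGTR range, and TGTR replicates 1 and 5 lay below all TGNT libraries. For Kcnq5 the log2 fold change was -0.28 ± 0.10 (SE), with an unadjusted p of 0.0163 and an adjusted p of 0.964 (edgeR). Kcnq3, another M-current subunit, had a log2 fold change of 0.04.

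Kcng4, an electrically silent subunit, had 70.3, 69.9, 70.8 and 72.3 RPM in TGNT and 60.1 to 73.0 RPM (median 62.1) in TGTR rats. TGTR replicate 1 had the highest value of the table, and the other 5 TGTR libraries lay below all TGNT libraries (log2 fold change -0.13 ± 0.06 SE, unadjusted p of 0.0351, adjusted p of 0.964, edgeR). Kcnt2, a sodium-activated channel, had 49.5, 55.0, 63.3 and 58.9 RPM in TGNT and 44.0 to 57.3 RPM (median 49.7) in TGTR rats (log2 fold change -0.17 ± 0.08 SE, unadjusted p of 0.0425, adjusted p of 0.990, edgeR). The estimates of Kcng4 were fractions in all 10 libraries. The calcium-activated genes had a lower mean for Kcnn1 (log2 fold change -0.14) and Kcnn2 (-0.15, unadjusted p of 0.0668, edgeR), while Kcnma1 was at 250 ± 5.72 RPM in TGNT (SD, n = 4) and 250 ± 9.66 RPM in TGTR rats (SD, n = 6).

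The largest log2 fold change of the treatment comparison, 1.44 for Kcne2, was that of 1 rat. Kcne2 is an ancillary subunit known from the choroid plexus epithelium. It measured 2.19, 1.20, 1.35 and 0.828 RPM in TGNT and 1.29, 0.847, 1.13, 1.18, 16.7 and 2.68 RPM in TGTR replicates 1 to 6. The highest values were those of TGTR replicates 5 and 6, the libraries with 3061 and 152 RPM of choroid plexus markers, of which 10 of 10 had a higher mean in TGTR. Ttr, the main product of that epithelium, was at 2501 and 108 RPM in these libraries and at 0.714 to 11.7 RPM in the others. The unadjusted p of Kcne2 was 0.117 (edgeR), and without these rats the log2 fold change was -0.33 (unadjusted p of 0.320, edgeR). With the same rats left out, 8 of the 70 channel genes had an unadjusted p under 0.05 (background 4.94%), 6 of them higher. Of the 11 genes found with all rats, Kcna6, Kcnc4, Kcng4, Kcnj4, Kcnj12 and Kcnq5 were among these 8, whereas Kcnk1, Kcnk2, Kcnk3, Kcnip1 and Kcnt2 were not, and Kcnh3 and Kcnk12 were added (named after their values were seen). Over 23 alternatives the unadjusted p stayed under 0.05 in 22 for Kcna6 and Kcnj4, 21 for Kcnq5, 20 for Kcnk2, 18 for Kcnc4, 16 for Kcnk3, 15 for Kcnk1, 12 for Kcng4, 11 for Kcnip1 and 10 for Kcnt2.

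The 2 comparisons had little in common for these genes. Among the 68 measured at 1 RPM in both tables, 21 were higher in both, 14 lower in both, 10 higher in TGNT and then lower in TGTR, and 23 lower in TGNT and then higher in TGTR. No gene had an unadjusted p under 0.05 in both. The fitted log2 fold changes with genotype and treatment had opposite signs for Kcnab3 (-0.49 and 0.26) and the same sign for Kcna1 (-0.26 and -0.06), with the treatment values above an unadjusted p of 0.05. Across the 68 genes the log2 fold changes had a Pearson correlation of 0.08 and a Spearman correlation of 0.05, a description across genes, which are not independent. The tables share no library.

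**Figure D4:**
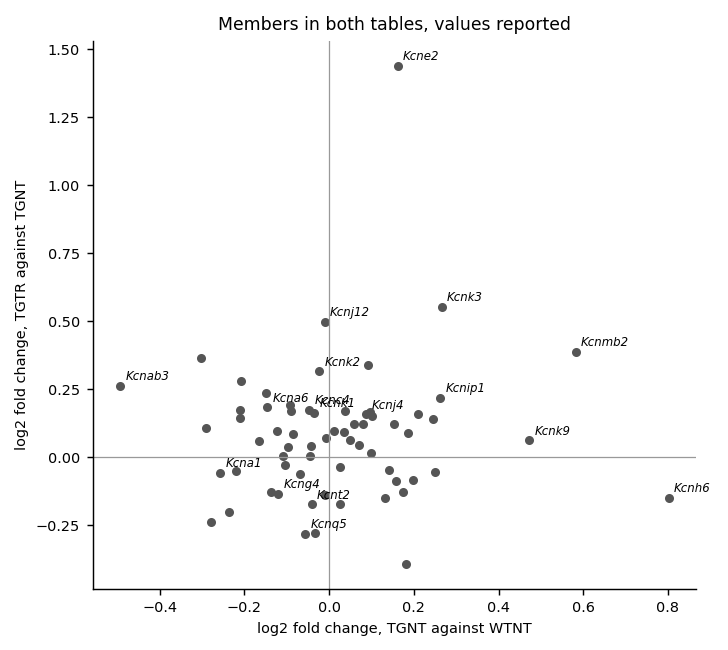
Log2 fold change of 65 channel genes of both tables, TGNT against WTNT (horizontal axis) and TGTR against TGNT (vertical axis). Each point is a gene, and named points have an unadjusted p under 0.05 in a comparison or a log2 fold change beyond 0.5. The points show little relation between the axes, and more of them lie above than below 0 on the vertical axis.

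Rats of 1 group differed more in some channel genes than the groups did. Over genes averaging at least 5 RPM, the median coefficient of variation within groups was 15.3% in the genotype table (53 genes, from 5.11% to 63.4%) and 12.7% in the treatment table (58 genes, from 3.36% to 52.3%). Kcnf1, a silent subunit chosen here after its values were seen, varied most in the genotype table, with 2.98, 6.95, 27.1, 5.46 and 30.3 RPM in WTNT rats, while TGNT rats ranged from 11.7 to 20.5 RPM. WTNT replicates 3 and 5 stood above all others and the remaining WTNT libraries below. In the treatment table Kcnf1 was at 46.6, 12.3, 15.6 and 11.2 RPM in TGNT and at 15.4, 39.2, 24.6, 18.4, 38.7 and 26.8 RPM in TGTR rats, so that TGNT replicate 1 and TGTR replicates 2 and 5 stood apart.

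Some of these rats stood apart for other channel genes too. Kcnt1, a sodium-activated channel, was at 21.4 RPM in WTNT replicate 3 and at 7.29 to 14.5 RPM in the other WTNT libraries. In the treatment table it was at 40.3, 31.8 and 38.3 RPM in TGNT replicate 1 and TGTR replicates 2 and 5, and at 16.6 to 26.2 RPM in the others. Kcnq3 ran the other way, with 226, 270 and 257 RPM in those rats and 329 to 385 RPM in the others. Markers of CA3, a hippocampal subregion, summed to 1067 RPM in TGNT replicate 1 and 880 RPM in TGTR replicate 5, the lowest of the table, but to 1347 RPM in TGTR replicate 2, within the 1263 to 1645 RPM of the others. In the genotype table WTNT replicate 3 had the lowest sum, 730 RPM, against 841 to 1383 RPM in the others, while WTNT replicate 5, the highest for Kcnf1, was at 1032 RPM, in the middle of them. The part of subregions in the spread was not tested.

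**Figure D5:**
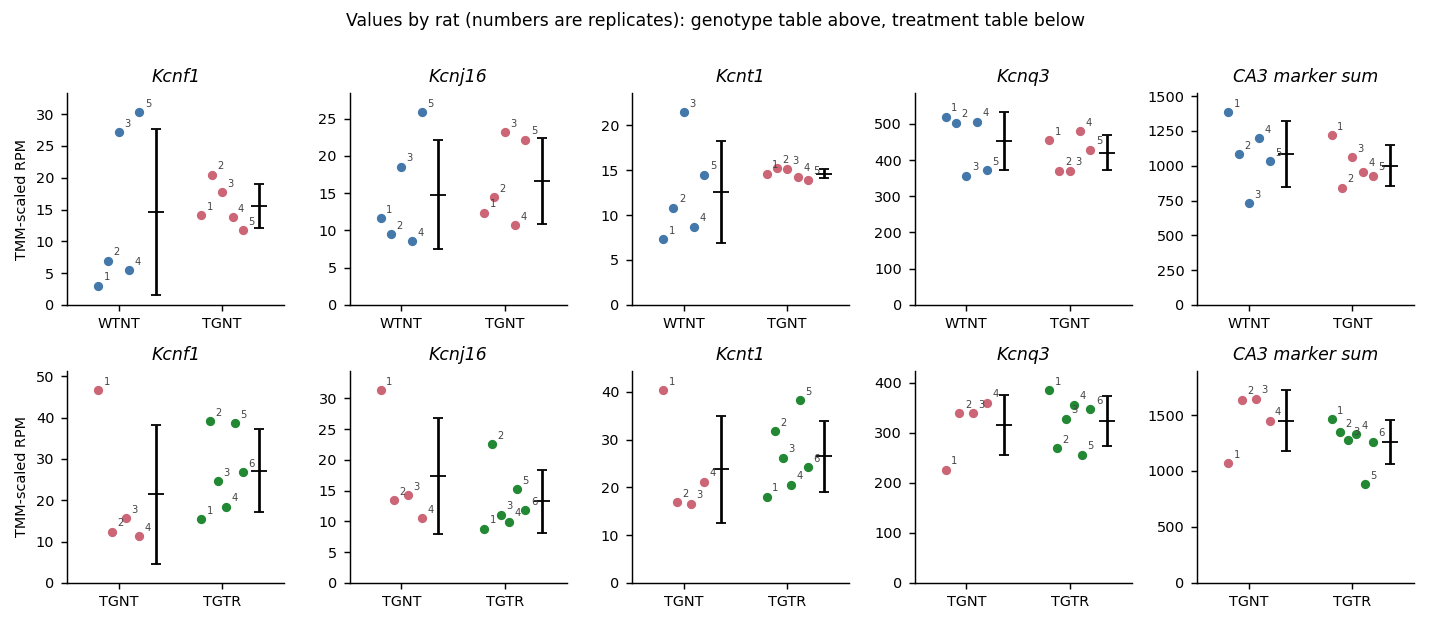
TMM-scaled RPM (vertical axes, from 0) of Kcnf1, Kcnj16, Kcnt1 and Kcnq3 and the summed RPM of CA3 markers in the genotype table (upper row) and the treatment table (lower row). Points are rats with replicate numbers, and bars give the mean ± SD. TGNT replicate 1 of the treatment table is highest for Kcnf1 (46.6 RPM), Kcnj16 (31.3 RPM) and Kcnt1 (40.3 RPM) and lowest for Kcnq3 (226 RPM).

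TGNT replicate 1 of the treatment table was the highest library for 9 and the lowest for 13 of 58 channel genes averaging at least 5 RPM, the largest number of extremes in that table. Without it, 19 of the 70 genes had an unadjusted p under 0.05 (27.1%, background 9.04%), 15 higher and 4 lower in TGTR, and the groups of 7 genes did not overlap (background 5.38%). These 7 were Kcnc2, Kcnh2, Kcnip1, Kcnj4, Kcnj12 and Kcnk3, higher in TGTR, and Kcnip2, lower (Kcnh2 was chosen after its values were seen). The lowest adjusted p among channel genes was then 0.262 (edgeR). Without TGNT replicate 2 instead, 3 genes had an unadjusted p under 0.05 (background 3.90%), Kcna6, Kcnj12 and Kcng4. Without WTNT replicate 3 or WTNT replicate 5, 10 of the 69 genes of the genotype comparison had an unadjusted p under 0.05 (background 7.58% and 6.62%), with Kcna1, Kcnab3, Kcnip2 and Kcnk9 among those in both sets.

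The other genes of potassium handling were counted in the same fits. Over all genes at or above 1 RPM, 52.5% had a higher mean with genotype and 50.1% with treatment. An unadjusted p under 0.05 was found in 2.04% of them higher and 1.88% lower with genotype. With treatment the shares were 3.94% higher and 2.24% lower. Of 17 measured partners of voltage-gated and calcium-activated channels, 4 had a higher and 13 a lower mean in TGNT than in WTNT rats, and 11 a higher and 6 a lower mean in TGTR than in TGNT rats, with 0 past the adjusted threshold in either comparison. The gene with an unadjusted p under 0.05 was Dlg1, a scaffold of Kcna channels, with 73.7 ± 10.9 RPM in TGNT (SD, n = 4) and 86.0 ± 9.89 RPM in TGTR rats (SD, n = 6; unadjusted p of 0.0415, edgeR). Of 5 genes of the hyperpolarization-activated channels, 3 had a higher mean in TGNT than in WTNT rats and 4 in TGTR than in TGNT rats. Hcn2, a pore subunit, had 80.5 ± 4.27 RPM in WTNT and 71.0 ± 4.59 RPM in TGNT rats (SD, n = 5 each; unadjusted p of 0.0158, adjusted p of 1, edgeR). Of 10 pump and transporter genes, 3 had a higher mean with genotype and 8 with treatment, and 1 had an unadjusted p under 0.05. It was Slc12a2, a sodium-potassium-chloride cotransporter that the choroid plexus also expresses (log2 fold change 0.25 with treatment, unadjusted p of 0.0119, adjusted p of 0.964, edgeR). Slc12a2 had 157.7 ± 14.75 RPM in TGNT (SD, n = 4) and 187.8 ± 21.22 RPM in TGTR rats (SD, n = 6). The part of choroid plexus RNA in this difference was not tested.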

How the data were processed

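Stranded poly(A) mRNA of female rat hippocampi was sequenced, with a library per rat (20 libraries). Per the submitters' processing notes, reads were handled with bcl2fastq 2.17, Bowtie2 2.1.0, RSEM 1.2.15 and edgeR on build rn6; the annotation is not given in the sources used here. The authors deposited estimated counts from RSEM, not normalized, which divides reads that fit several genes, and a signal, RPM scaled by TMM factors within each table. Of the estimated counts, 87.9% to 89.4% per library were whole (within 1e-06).

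Counts were rounded and fitted with edgeR 4.0.16 (R 4.3.3), each table by itself, with TMM factors and the two-sided quasi-likelihood test over all 17168 genes and Benjamini-Hochberg adjustment. The SE is the log2 fold change divided by the root of the F statistic. Single values were compared with exact two-sided permutation tests of RPM (scipy 1.17.1). P-values set the difference between groups against the spread between rats. Fits were tested on simulated data, in which the changes were larger than most differences reported here. Genes of low RPM were not among those changed, so the simulation does not cover such genes or small differences.

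Named genes were those with an unadjusted p under 0.05, those whose groups do not overlap, 35 genes with known roles, and those next to the RPM level. Kcnab1, Kcnf1, Kcnh2, Kcnh3, Kcnk12, Dlg1, Hcn2, Slc12a2 and Ttr are outside this rule and were named after their values were seen. The values of some channel genes that this rule names are not reported here, although they are in the counts. The members, the lists and this rule were chosen with earlier results of these data known. Gene names matched the GRCr8 table for 83 symbols and 1 synonym, and no coordinates are given because that build is not rn6. Genes are not compared in level, since no lengths were used. Alternatives were DESeq2 1.42.0, limma 3.58.1, other edgeR tests, normalizations and filters, other RPM levels, a replicate block, and fits without each rat. A fit without TGTR replicates 5 and 6 was added after the data were seen. Tables had 0 columns without a sample.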

Additional observations from a re-analysis of the deposited data

Results flagged for a closer look

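In 3 cases a rat lay apart from the rest of its group by Dixon's gap criterion. These were among 146 groups of rats, for channel genes named by their p, their lack of overlap or a known role. Chance alone would give about 7.3. Genes named after their values were seen, such as Kcnf1, Kcnh2 and Kcnh3, were not in this screen. In the treatment table, TGNT replicate 1 was high for Kcnk3 (6.48 RPM, the next 3.77) and low for Kcnq3 (226 RPM, the next 339). TGTR replicate 5 was high for Kcne2 (16.7 RPM, the next 2.68).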

How the results depend on the processing

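No alternative brought a channel gene past the adjusted threshold in either comparison, including adjusted p under 0.1 without a fold limit. The counts at an unadjusted p under 0.05 depended more on the rats and the test. In the genotype comparison the count of 6 was 3 with at least 10 counts in every rat and 3 with the unequal-variance test, and 2 to 10 without a rat: 10 without WTNT replicate 3 or 5, 3 without WTNT replicate 2, WTNT replicate 4 or TGNT replicate 4 (4.35%, background 2.95%, 3.20% and 3.75%), and 2 without TGNT replicate 5 (2.90%, below the background of 3.13%). The count of 0 genes whose groups do not overlap was 0 to 2 without a rat. It was 1 without WTNT replicate 5 or TGNT replicate 5 (background 1.795% and 1.06%) and 2 without TGNT replicate 2 (background 2.11%). In the treatment comparison the count of 11 was 6 with the unequal-variance test and 3 to 19 without a rat. It was 19 without TGNT replicate 1 (background 9.04%), 3 without TGNT replicate 2 (background 3.90%) and 7 without TGTR replicate 6 (background 5.20%). The count of 1 gene whose groups do not overlap was 2 with library size only, and 3 without TGTR replicates 5 and 6 (background 3.045%). Without a rat it was 1 to 7, with 7 without TGNT replicate 1 (background 5.38%) and 3 without TGTR replicate 1 or 2 (background 2.13% and 2.99%). It was 2 without TGNT replicate 3, TGNT replicate 4 or TGTR replicate 5 (background 2.48%, 3.39% and 2.1%). The share over all genes was also higher in these fits than with all rats (0.81% higher and 0.633% lower). The median log2 fold change of 0.08 was 0.12 with library size only and 0.041 without TGTR replicates 5 and 6. The causes were not tested.

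With a replicate block the counts at an unadjusted p under 0.05 were 5 in the genotype and 6 in the treatment comparison. For this block, the unequal-variance test, the count filter and library size only, no share over all genes is given. Their counts are therefore not set against a background. The deviations of same-numbered rats from the group means correlated between -0.2 and 0.326 in the genotype table and between -0.584 and 0.139 in the treatment table. Differently numbered rats ranged from -0.384 to 0.311 and from -0.352 to 0.391, respectively. Whether same-numbered rats shared anything but the number cannot be told from these values.

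The channel genes reported here with an unadjusted p under 0.05 kept their direction in the alternatives run for each (none was run for Dlg1, Hcn2 and Slc12a2), and of 73 results for channel genes reported here 47 never reversed. The reversed log2 fold changes of the genotype comparison were 0.0035 for Kcnmb4 with library size only, and for Kcnn1 0.024 and 0.018 with limma-trend (0.1 and 1 added) and 0.0067 with the replicate block. Those of the treatment comparison were -0.0034 for Kcnd2 and -0.0026 for Kcnma1 with upper quartile factors, 0.0067 for Kcnj10 with library size only, -0.30 for Kcne2, 0.037 for Kcnj10, -0.017 for Kcnma1, -0.047 for Kcnn3 and 0.020 for Kcns2 with the replicate block, and -0.33 for Kcne2, 0.029 for Kcnj10, -0.020 for Kcnma1, -0.049 for Kcnn3 and 0.015 for Kcns2 without TGTR replicates 5 and 6. Leaving out a rat reversed the sign within these ranges in the genotype comparison: Kcna2 -0.044 to 0.070, Kcna4 -0.024 to 0.10, Kcnip3 -0.22 to 0.11, Kcnip4 -0.0082 to 0.075, Kcnj4 -0.040 to 0.16, Kcnk1 -0.097 to 0.024, Kcnk2 -0.084 to 0.020, Kcnmb4 -0.050 to 0.027, Kcnn1 -0.11 to 0.18, Kcnn3 -0.0063 to 0.31, Kcnq5 -0.21 to 0.0069 and Kcnv1 -0.023 to 0.10. In the treatment comparison the ranges were Kcna1 -0.15 to 0.025, Kcnd2 -0.12 to 0.093, Kcnd3 -0.14 to 0.12, Kcnh1 -0.13 to 0.012, Kcnj10 -0.080 to 0.041, Kcnj16 -0.62 to 0.054, Kcnj2 -0.0070 to 0.11, Kcnk9 -0.079 to 0.32, Kcnma1 -0.014 to 0.018, Kcnn3 -0.10 to 0.17, Kcnq3 -0.091 to 0.10, Kcns2 -0.21 to 0.039 and Kcnv1 -0.045 to 0.17. Depth limits the weakly expressed genes: Kcne3 rested on 3 to 21 counts per library.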
